A study of Rattus norvegicus with 6 samples.

Results

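Erythropoietin and 9 other genes that low oxygen is known to induce were followed in the renal cortex of rats: Epo, Vegfa, Adm, Egln3, Egln1, Car9, Pdk1, Slc2a1, Bnip3 and Ndrg1. The 10 genes were fixed by name, and every probe whose RefSeq accession maps to one of these rat symbols was taken. This gave 17 of 61657 probes on the array and 9 of the 10 genes, since no probe mapped to Egln1. The series used male Sprague-Dawley (Crl:CD(SD)) rats bought at 5 weeks of age. For 4 weeks 3 control animals were given water (labelled VC) and 3 animals were given o-anisidine hydrochloride, an aromatic amine, at 700 mg/kg/day. All 6 animals had the same basal diet and tap water, and each cortex was measured on 1 Cy3 array. The question put to these genes is whether the cortex shows a sign of oxygen sensing beside the red cell transcripts that are raised in the same samples.

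As background, cells sense oxygen through prolyl hydroxylases (the Egln enzymes), which mark the alpha subunits of the hypoxia-inducible factors (HIF) for destruction through the VHL ubiquitin ligase. When oxygen falls, the alpha subunits pair with ARNT and switch on genes of red cell production, vessel growth, glucose uptake, glycolysis and pH control. In the adult kidney Epo is made by interstitial fibroblasts of the cortex and outer medulla, and the hormone drives the survival of red cell precursors in the marrow.

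HIF binds the core letters ACGTG or GCGTG, and the promoter windows of the genes were searched for both. The windows come from RefSeq on GRCr8 and run from 250 bases before to 50 bases after the start site. Windows were matched for 9 of the 10 genes, all but Ndrg1, giving 10 windows in all because Vegfa has 2. Matches were sought on both strands, a palindrome counting on each, and 6 windows held at least 1: those of Epo, Egln1, Car9, Pdk1, Slc2a1 and Bnip3. Of the 10 windows, 5 held ACGTG and 5 held GCGTG. Over all 33469 windows of the same 300 bases, 41.6% held either motif, 19.3% ACGTG and 29.7% GCGTG. Pdk1, Slc2a1 and Bnip3 had 4 matches each, Egln1 had 2, and Epo and Car9 had 1. The windows of Epo, which had the largest difference between the groups, of Bnip3, the only gene whose groups did not overlap, and of Adm, which had the most negative difference and no match, are printed 5′ to 3′ with the matches in capitals on either strand. The arrays were annotated on another assembly, so these coordinates place the windows and not the probes.
Epo (GRCr8, chr12:24841035-24841334, + strand): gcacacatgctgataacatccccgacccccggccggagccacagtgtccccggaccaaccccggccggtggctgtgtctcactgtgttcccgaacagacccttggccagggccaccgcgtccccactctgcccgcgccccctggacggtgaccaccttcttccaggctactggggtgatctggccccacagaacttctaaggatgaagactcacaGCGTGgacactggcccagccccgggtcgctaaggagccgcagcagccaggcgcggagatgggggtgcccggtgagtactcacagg
Bnip3 (GRCr8, chr1:203154913-203155212, - strand): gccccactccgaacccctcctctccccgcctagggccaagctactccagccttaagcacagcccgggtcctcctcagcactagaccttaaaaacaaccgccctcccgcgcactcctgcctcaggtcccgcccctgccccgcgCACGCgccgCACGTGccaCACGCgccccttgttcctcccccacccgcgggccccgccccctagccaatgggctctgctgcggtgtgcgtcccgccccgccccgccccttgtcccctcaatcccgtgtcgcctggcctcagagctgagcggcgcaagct
Adm (GRCr8, chr1:174179950-174180249, + strand): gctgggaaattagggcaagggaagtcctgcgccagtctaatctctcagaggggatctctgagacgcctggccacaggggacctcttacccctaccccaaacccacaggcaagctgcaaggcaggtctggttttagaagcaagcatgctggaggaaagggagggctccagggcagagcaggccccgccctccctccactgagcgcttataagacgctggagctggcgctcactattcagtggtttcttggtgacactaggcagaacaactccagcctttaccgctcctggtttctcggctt
The single match in the Epo window begins at position -35 from the start site, counting the base before the start as -1. In the Bnip3 window the matches begin at -108, -99, -98 and -90. The best known hypoxia element of Epo lies downstream of the gene and outside this window. A match describes these letters only.

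Measures of array quality differed between the groups without overlap. Of the 61657 probes, 43075 to 43630 per control array and 41670 to 42766 per treated array passed the scanner's flag for being well above background. The 75th percentiles of signal ran from 986 to 1031 in controls and from 923 to 963 after o-anisidine, and no spot was saturated. The part of these differences in the results was not tested. With 3 arrays in a group, their number limits precision. All 10 proximal tubule markers, among them Slc34a1, Slc22a6 and Miox, were well above background on all 6 arrays. File headers place all 3 controls and o-anisidine 3 on 1 slide and o-anisidine 1 and 2 on another, and each slide was scanned on its own day.

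None of the 9 measured genes passed the threshold of an adjusted p under 0.05 in either direction. Over all 31087 genes tested with limma, 11 (0.0354%) were higher and 8 (0.0257%) lower after o-anisidine. Of the 31087, 12015 had a gene symbol, and every other accession was counted as a gene of its own. The median log2 change of the 9 genes was 0.12, against 0.0037 over all genes, with 7 of 9 above 0 against 50.9% of all genes. Epo entered the fit only through the treated group, in which it was detected, so the 8 genes detected on all 6 arrays were also counted alone. Among these the median was 0.12, with 6 of 8 above 0, and at an unadjusted p under 0.05 Bnip3 alone was higher and no gene lower. Of 29581 genes so detected 6.65% were higher and 4.99% lower at that p. Groups did not overlap for 1 of 9 genes, Bnip3, which was higher, whereas 9.55% of all genes were higher without overlap and 8.88% lower. That count became 3 without control 1 or without o-anisidine 1, and 2 without control 3 or without o-anisidine 2. There 13.2% to 14.7% of all genes were higher without overlap. It stayed 1 without control 2, against 14.7% of all genes, and without o-anisidine 3, against 20.2%. The count was 2 with normexp background correction, against 11.6%, and 5 within the slide that held both groups, against 25.2%. In the other direction 1 gene was lower without o-anisidine 2, against 14.9%, and 1 within that slide, against 31.7%.

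Epo, the hormone of red cell production, was the gene with the largest difference, and its RNA was close to the limit of detection. The processed signal of the brighter of its 2 probes was 21.9, 15.7 and 10.3 scanner units on controls 1, 2 and 3 and 19.1, 25.9 and 29.6 on o-anisidine 1, 2 and 3. The probe was well above background on all 3 treated arrays but on control 1 alone among the controls. The groups overlapped, since control 1 lay above o-anisidine 1. On the log2 scale relative to each array's 75th percentile, called the relative log2 signal below, the values were -5.55, -5.97 and -6.58 in controls and -5.65, -5.16 and -4.99 after o-anisidine. The group means differed by 0.77 on this scale, from -6.03 ± 0.52 to -5.27 ± 0.35 (SD, n = 3 each). Because the probe passed the filter on dim probes through the treated group alone, this difference is a description, with no test. In bulk tissue a different number of cells of a type and a different amount of RNA per cell cannot be told apart.

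**Figure D1:**
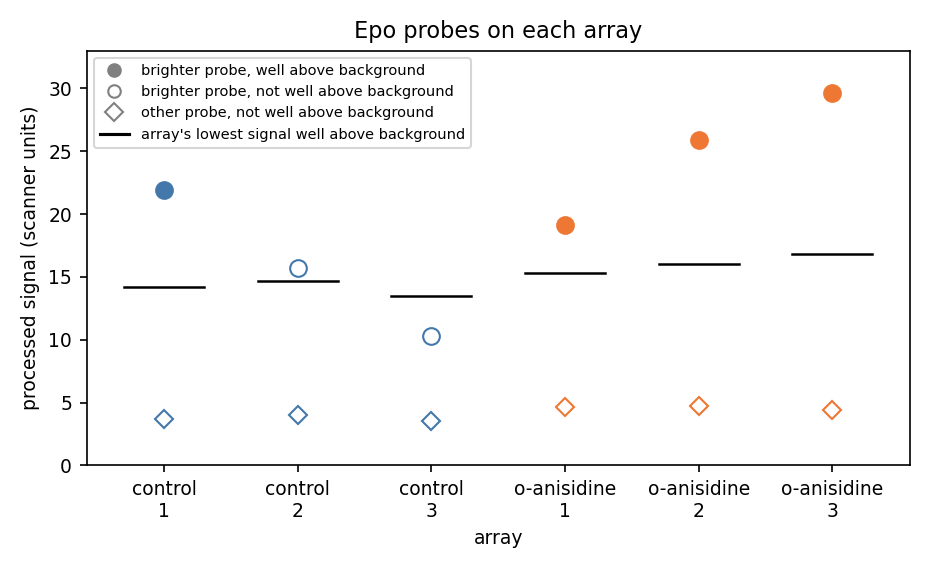
Processed signal (scanner units, linear axis) of both Epo probes on each of the 6 arrays, with filled circles where the brighter probe was well above background and a black line at the array's lowest signal that was. The brighter probe is filled on 1 of 3 control and 3 of 3 o-anisidine arrays, and the other probe stays between 3.52 and 4.76 units on all 6.

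The other Epo probe was not well above background on any array, so it gives no level. Its signal of 3.71, 3.98 and 3.52 units in controls and 4.63, 4.76 and 4.37 after o-anisidine nevertheless did not overlap between the groups. Probes that were dark everywhere behaved in the same way. Of the 15780 probes not well above background on any array, 51.1% had relative log2 signals that were higher after o-anisidine without overlap, with a median log2 change of 0.26, and without scaling between arrays the figures were 46.1% and 0.18. Their median signal was 3.46 units in controls and 3.93 after o-anisidine, a difference of 0.467 units. The brighter Epo probe differed by 8.88 units, from 16.0 ± 5.82 to 24.9 ± 5.31 (SD, n = 3 each). The part of the background in this difference was not tested.

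Background correction by normexp with an offset of 50 units, which is larger than any Epo signal here, left a log2 change of 0.030 for Epo. Leaving out 1 array at a time gave log2 changes from 0.50, without control 3, to 1.01, without control 1. On the slide that held both groups, Epo on o-anisidine 3 lay 1.05 above the control mean on the log2 scale.

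Vegfa, the growth factor of vessel endothelium, was bright and nearly even across the animals. Its relative log2 signal was 4.32, 4.35 and 4.19 in controls and 4.31, 4.41 and 4.49 after o-anisidine. Treated arrays 2 and 3 lay above all controls and o-anisidine 1 among them, so the groups overlapped. The log2 change was 0.12 (SE 0.083, 95% interval -0.086 to 0.32, adjusted p = 0.629). All 6 Vegfa probes were well above background on every array. They covered 2 RefSeq transcripts, and their log2 changes ran from -0.027 to 0.12, with 4 of 6 above 0.

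Adm encodes adrenomedullin, a peptide that widens vessels, and had the most negative difference of the 9 genes. Its relative log2 signal was 2.91, 3.41 and 3.08 in controls against 2.62, 3.13 and 2.61 after o-anisidine. Treated arrays 1 and 3 lay below all controls, while o-anisidine 2 lay within their range. This gave a log2 change of -0.35 (SE 0.19, 95% interval -0.81 to 0.12, adjusted p = 0.542).

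Egln3 encodes a prolyl hydroxylase that is itself induced by HIF. It stood at -1.31, -1.19 and -1.74 in controls and -1.60, -1.50 and -1.25 after o-anisidine on the relative log2 scale. All treated values lay inside the range of the controls. Its log2 change was -0.041 (SE 0.17, 95% interval -0.46 to 0.38, adjusted p = 0.946), and its sign turned with the slide as a block. Egln1, the hydroxylase that sets HIF levels in most tissues, was not analysed here.

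**Figure D2:**
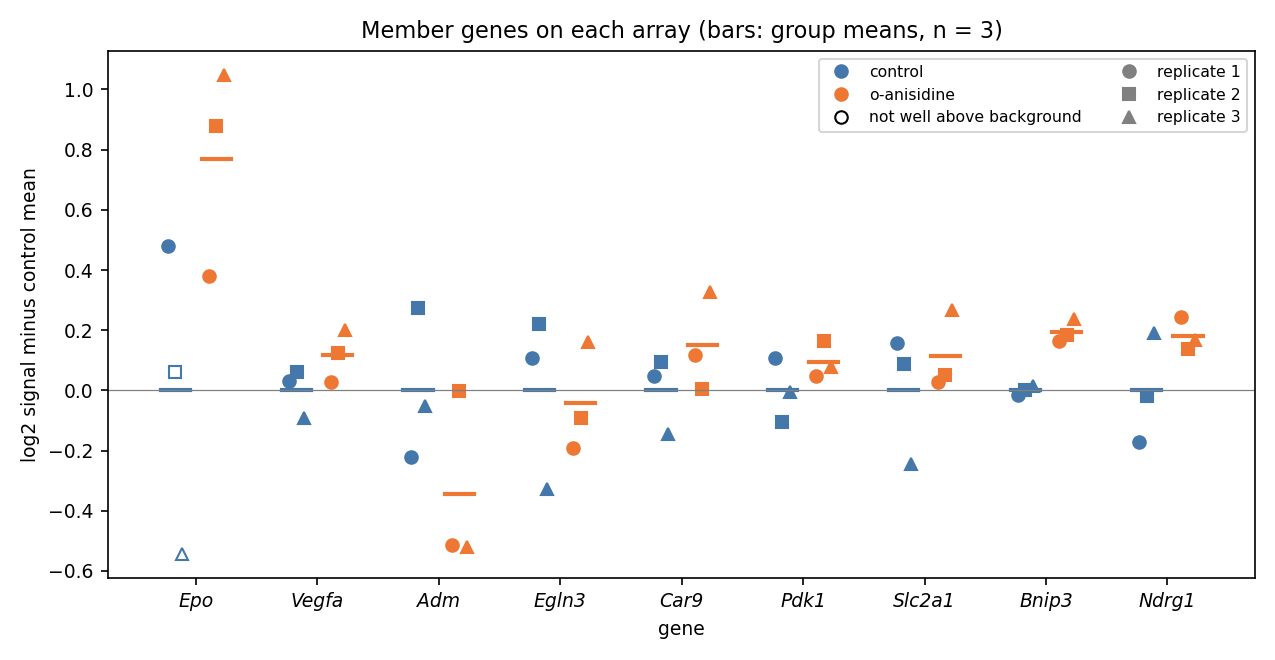
Relative log2 signal of the 9 measured genes on each array minus the control mean of the gene (vertical axis, log2 units), with bars at the group means and open symbols where the probe was not well above background. Only Bnip3 has all 3 o-anisidine arrays above all 3 controls, and Epo has the widest spread.

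Genes of glucose use and acid handling showed small differences. Slc2a1 encodes the glucose transporter GLUT1. Its relative log2 signal was 1.73, 1.66 and 1.33 in controls and 1.60, 1.63 and 1.84 after o-anisidine, so only o-anisidine 3 exceeded every control. For Slc2a1 the log2 change was 0.11 (SE 0.13, 95% interval -0.21 to 0.44, adjusted p = 0.774). Pdk1, a kinase that inhibits pyruvate dehydrogenase, stood at -2.38, -2.59 and -2.49 in controls and -2.44, -2.32 and -2.41 after o-anisidine. Here o-anisidine 2 alone exceeded every control. Pdk1 had a change of 0.096 on that scale (SE 0.084, 95% interval -0.11 to 0.30, adjusted p = 0.696). Car9, a carbonic anhydrase of the cell surface, was at -3.24, -3.19 and -3.43 in controls and -3.17, -3.28 and -2.96 after o-anisidine, with o-anisidine 2 inside the control range. Its log2 change was 0.15 (SE 0.11, 95% interval -0.13 to 0.43, adjusted p = 0.654), falling to 0.061 without o-anisidine 3 and 0.077 without control 3, and 0.33 within the shared slide. Slc2a1 and Pdk1 each had 4 motif matches in the printed search and Car9 had 1, and none of the 3 genes was called.

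Bnip3, which encodes a mitochondrial protein that marks mitochondria for removal, was the only gene higher on every treated array than on every control. The relative log2 signal of its brighter probe was 5.005, 5.024 and 5.036 in controls and 5.19, 5.21 and 5.26 after o-anisidine. Arrays of each group lay close together, and the difference was small: 0.19 on the log2 scale (SE 0.064, 95% interval 0.038 to 0.35), or 1.14-fold (unadjusted p = 0.0225, adjusted p = 0.360). The other Bnip3 probe gave 3.38, 3.45 and 3.49 against 3.73, 3.70 and 3.805, again without overlap. In a fit on single probes the latter differed by 0.31 (SE 0.070, adjusted p = 0.206). On the slide with both groups the brighter probe differed by 0.24.

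Ndrg1, a stress-response gene of epithelia, stood at 6.57, 6.72 and 6.93 in controls and 6.98, 6.87 and 6.90 after o-anisidine. Treated arrays lay close together at the upper end of the controls. The log2 change was 0.18 (SE 0.11, 95% interval -0.080 to 0.44, adjusted p = 0.564), and the other Ndrg1 probe gave 0.13.

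**Figure D3:**
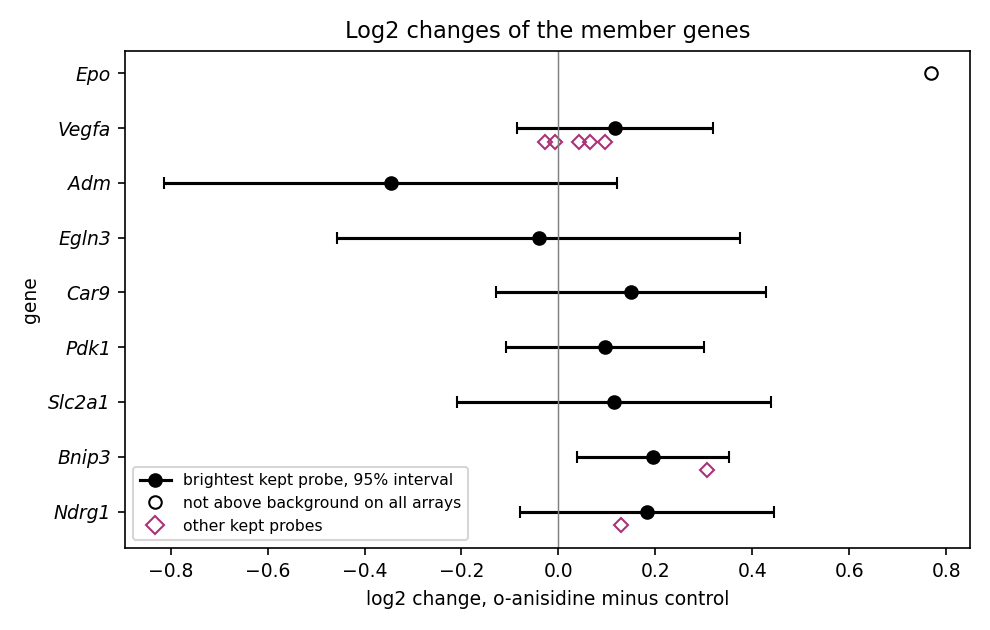
Log2 change of each gene, o-anisidine minus control (horizontal axis), with its 95% interval from limma for the brightest kept probe and diamonds for the other kept probes. Epo, open, has no interval because it was detected on 4 of 6 arrays. Of the 8 intervals, unadjusted, that of Bnip3 (0.038 to 0.35) lies above 0 and the other 7 include 0.

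Single arrays moved several of these small values. Without 1 array at a time the log2 change ran from 0.070 to 0.16 for Vegfa, -0.52 to -0.21 for Adm, 0.044 to 0.15 for Pdk1, 0.097 to 0.28 for Ndrg1 and 0.17 to 0.21 for Bnip3. The first bounds came without control 3 for Vegfa, o-anisidine 2 for Adm, control 2 for Pdk1, control 1 for Ndrg1 and o-anisidine 3 for Bnip3. Where both groups shared a slide, the 9 log2 changes ran from -0.52 for Adm to 1.05 for Epo with a median of 0.20, and no gene was called there or with slide as a block. That slide held 1 treated array, which was assumed to vary like the controls. Bnip3 was the gene of smallest p among those well above background on all 6 arrays. The 5 named genes most like it over the 6 arrays were Slc17a3, Rab33a, Klk1c12, Jam2 and Rgcc, with Pearson r from 0.989 to 0.996. Since those arrays form 2 groups, such likeness describes a shared difference between the groups as much as shared variation within them. Rgcc had the smallest adjusted p of the 5 (0.0888, log2 change 0.75, SE 0.086), so none was called.

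The machinery that senses oxygen was examined next, as a list of 15 genes of which 13 were tested. None was called in either direction, where 0.0354% of all genes were called higher and 0.0257% lower. At such shares a lack of calls says little about a list of this length, here or below. The median log2 change was 0.027, with 7 of 13 above 0. Hif1a, the widely expressed HIF alpha subunit, differed by -0.089 (SE 0.089, adjusted p = 0.738), and its 3 kept probes ran from -0.089 to 0.25. Epas1, which encodes HIF-2 alpha, the subunit that drives renal Epo, had 0.084 (SE 0.10, adjusted p = 0.790). Its relative log2 signal was -0.53, -0.27 and -0.36 in controls and -0.32, -0.17 and -0.42 after o-anisidine. Only o-anisidine 2 lay outside the range of the controls. Arnt, the partner subunit, had -0.070 (SE 0.16), Vhl, the ligase subunit, -0.027 (SE 0.072), Egln2, another of the hydroxylases, -0.025 (SE 0.079), and Hif1an, which blocks HIF activity by another hydroxylation, 0.068 (SE 0.11). Directions of Hif1a, Epas1, Arnt, Vhl, Egln2 and Hif1an each turned under at least 1 alternative. Rbx1, a ligase subunit, had the smallest p of the list (0.15, SE 0.071, adjusted p = 0.479), and Arnt2 had 0.34 (SE 0.16) and Eloc -0.072 (SE 0.068).

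All 20 glycolysis genes were tested, and none was called. Their median log2 change was 0.020, with 12 above 0. Aldoc, an aldolase, differed most firmly, by 0.50 (SE 0.18, adjusted p = 0.390). It stood at -2.03, -2.40 and -1.76 in controls and -1.40, -1.70 and -1.60 after o-anisidine, without overlap, while its other kept probe gave 0.15. Gapdh also did not overlap, with 0.22 (SE 0.088, adjusted p = 0.422) and a range of 0.19 to 0.23 over 5 probes. Pfkp, a phosphofructokinase, had -0.18 (SE 0.10) and Gpi, the glucose phosphate isomerase, -0.090 (SE 0.080), both with groups that overlapped.

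Of 40 further HIF targets 33 were tested, and again none was called. The median log2 change was 0.036, with 18 above 0 and 15 below. Hmox1, the inducible haem oxygenase, which haem and oxidants induce as well as HIF, had the largest difference. Its relative log2 signal was -1.95, -1.26 and -1.51 in controls and -0.43, -0.69 and 1.499 after o-anisidine. Every treated array exceeded every control, and o-anisidine 3 stood far above the other treated arrays. The log2 change was 1.70 (SE 0.59, 95% interval 0.27 to 3.13, adjusted p = 0.373), but 1.01 without o-anisidine 3, and o-anisidine 3 lay 3.07 above the controls of its slide. Bhlhe40, a transcription repressor, had 0.41 (SE 0.13, adjusted p = 0.357). Ankrd37, a HIF target of unsettled function, lay lower on every treated array, at 2.40, 2.45 and 2.32 against 2.51, 2.68 and 3.14 in controls (log2 change -0.39, SE 0.17, adjusted p = 0.447), and without control 3 the change was -0.21. Mxi1, an antagonist of MYC, had -0.17 (SE 0.10), with groups that overlapped.

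Across these 3 lists, 66 genes had a median log2 change of 0.028, with 37 above 0 and 29 below. None was called, beside 0.0354% of all genes higher and 0.0257% lower. Groups did not overlap for 8 higher and 2 lower genes, beside 9.55% and 8.88% of all genes, and 6 were higher and 0 lower at an unadjusted p under 0.05, beside 6.36% and 5.14%.

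Among 13 tested genes of erythropoietin signalling and its responses none was called, with a median log2 change of -0.0070. Epor, the receptor, had a relative log2 signal of -3.27, -3.34 and -2.97 in controls and -2.92, -3.10 and -3.03 after o-anisidine (log2 change 0.18, SE 0.12, adjusted p = 0.610). Only o-anisidine 1 exceeded the controls, and the other Epor probe gave -0.083. Pim1, a kinase induced through STAT5, had the smallest p of the list. It stood at -3.82, -3.69 and -4.09 in controls and -3.08, -3.00 and -3.17 after o-anisidine, without overlap, and its log2 change was 0.78 (SE 0.12, 95% interval 0.49 to 1.07, adjusted p = 0.114). Its kept probes gave 0.78 and 0.81. Tfrc, the transferrin receptor, which HIF and iron lack both raise, lay lower on every treated array. Its relative log2 signal was 1.79, 2.11 and 2.08 in controls and 1.22, 1.61 and 0.60 after o-anisidine (log2 change -0.85, SE 0.26, adjusted p = 0.329). The 3 Tfrc probes ran from -0.85 to -0.74. Socs3, a brake on cytokine signalling, had 0.47 (SE 0.22) and Stat5a -0.34 (SE 0.14), both with overlap.

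Genes that act on the control of Epo or beside it held no call among 11 tested (median log2 change -0.0021). Hnf4a, a nuclear receptor known to act on the Epo enhancer, lay lower on every treated array, at -0.039, -0.32 and -0.22 against 0.57, 0.36 and 0.63 (log2 change -0.71, SE 0.11, 95% interval -0.98 to -0.44, adjusted p = 0.115). Its 3 kept probes ran from -0.71 to -0.28. Nr2f2, a nuclear receptor of stromal cells, had -0.23 (SE 0.091, adjusted p = 0.429). Aco1, the iron-responsive aconitase, had 0.36 (SE 0.14, adjusted p = 0.414), and Ireb2, the other iron-responsive protein, 0.11 (SE 0.093).

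**Figure D4:**
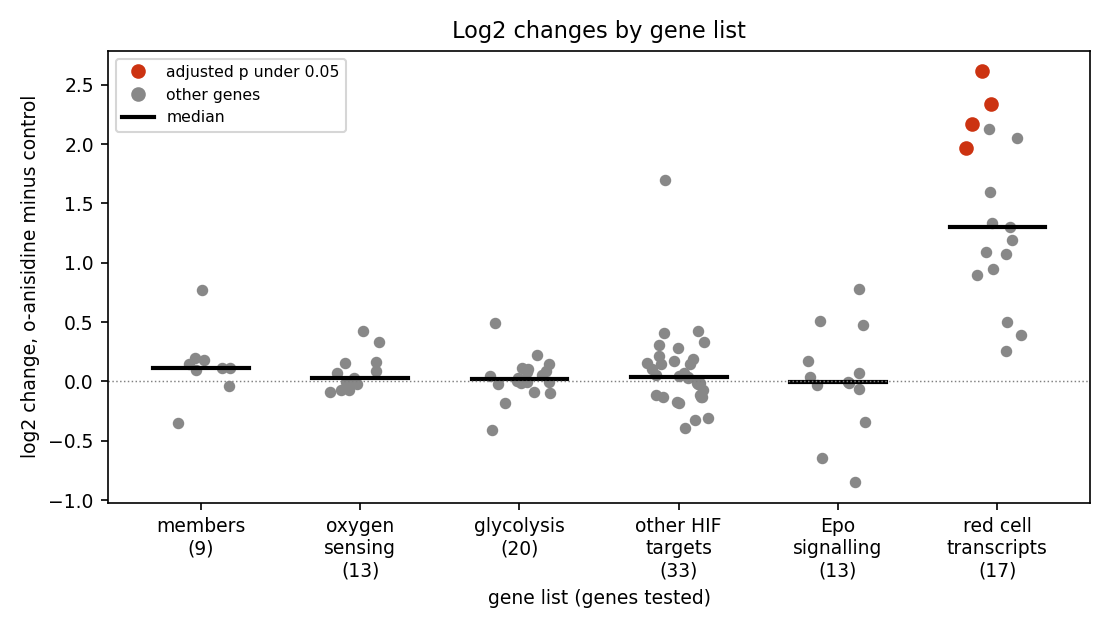
Log2 changes, o-anisidine minus control (vertical axis), of the tested genes of 6 lists, with black bars at the medians and red points for an adjusted p under 0.05. The 9 hypoxia-induced genes and the oxygen and Epo lists have medians between -0.0070 and 0.12, and red points occur only among the red cell transcripts, whose median is 1.30.

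Red cell transcripts, set beside these genes, differed far more. Of 22 listed genes 17 were tested, and all 17 had log2 changes above 0. Rhag, not well above background on any control, passed the filter through the treated group alone, so its sign is a description. Beside 0.0354% of all genes, 4 of the 17 rose at an adjusted p under 0.05. These were Kel and Rhd, which encode blood group proteins, Hemgn, a nuclear protein of erythroid cells, and Ahsp, the chaperone of alpha globin. Their log2 changes were 2.17 (SE 0.085), 2.61 (SE 0.12), 1.97 (SE 0.12) and 2.34 (SE 0.21), with adjusted p of 0.0020, 0.00477, 0.0101 and 0.0419 from limma. The median of the list was 1.30, or 1.19 with Rhag, dim in the controls, set to its bound. With slide as a block Kel alone of the 4 passed the threshold, while the log2 changes were 2.28 for Kel, 2.58 for Rhd, 1.98 for Hemgn and 2.24 for Ahsp. This list was chosen with these results known and is no independent evidence. The count of called genes was 2 without control 1, control 2 or o-anisidine 1 in turn, 1 without o-anisidine 3 and 0 within the shared slide.

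The lists moved differently from array to array. The median difference of the 9 hypoxia-induced genes from their control means was 0.049, 0.062 and -0.093 on controls 1, 2 and 3, and 0.047, 0.12 and 0.20 on the treated arrays in the same order. The same medians of red cell transcripts were 0.23, -0.098 and -0.10, then 1.44, 1.40 and 1.02. Array o-anisidine 3 thus had the highest shift of the hypoxia-induced genes and the lowest of the treated shifts of red cell transcripts. Among treated arrays o-anisidine 1 had the reverse. Since o-anisidine 3 was the only treated array on the slide of the controls, animal and slide cannot be told apart in this ranking. Epo itself was highest on o-anisidine 3 and lowest of the treated arrays on o-anisidine 1. No correlation is given, since the arrays form 2 separate groups of 3.

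**Figure D5:**
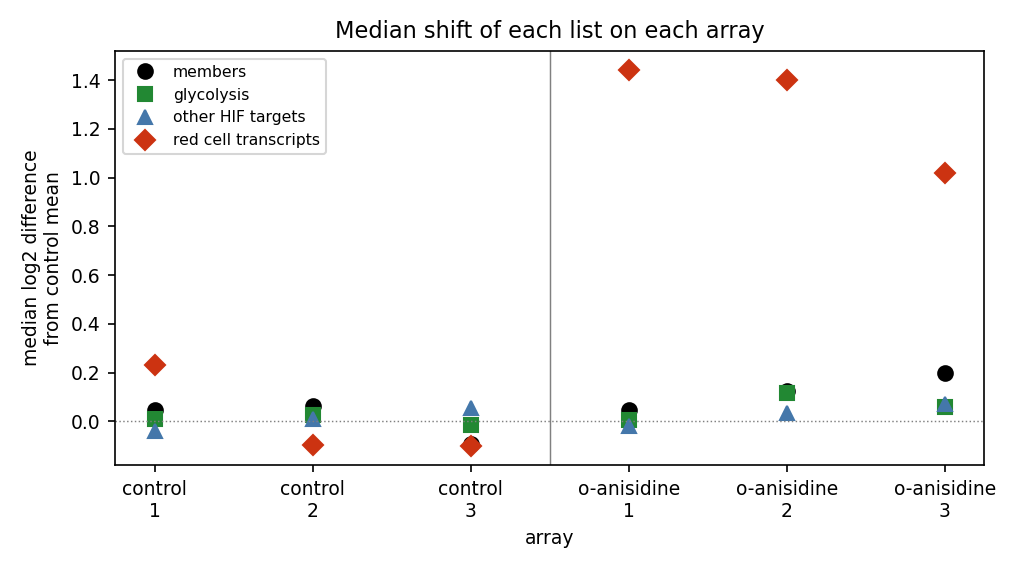
Median log2 difference from the control mean (vertical axis) on each array for the 9 hypoxia-induced genes, the glycolysis genes, the other HIF targets and the red cell transcripts. Red cell transcripts stand at 1.02 to 1.44 on the o-anisidine arrays, and the other 3 lists stay between -0.093 and 0.20 on all 6.

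Markers of the interstitial fibroblasts and pericytes, the cells that make Epo, were measured beside these values. Of 12 listed genes 11 were tested, 0 were called, and the median log2 change was -0.19, with 9 below 0. The summed signal of the 11 genes, in multiples of the array's 75th percentile, ran from 35.4 to 55.2 in controls and from 36.5 to 39.2 after o-anisidine. Lum was left out by the filter on dim probes, and of the tested genes Ngfr alone missed the detection flag, on 1 treated array. Tcf21, a transcription factor of stromal cells, had the lowest p of the list, at a change of -0.44 (SE 0.16, adjusted p = 0.396), and its groups did not overlap. Col1a2, a collagen chain, differed by -0.32 (SE 0.16), Nt5e, an ectonucleotidase of Epo-producing cells, by 0.18 (SE 0.15), and Pdgfra, a growth factor receptor, by 0.030 (SE 0.12). Markers of the inner medulla and papilla, where oxygen is lowest, had a median of 0.13 over 8 genes, with summed signals of 20.0 to 22.3 in controls and 20.7 to 25.6 after o-anisidine. Endothelial markers had a median of 0.040 over 8 genes. Leukocyte markers had a median of -0.15 over 8 genes, of which Cd52, a surface protein of lymphocytes, rose by 2.12 (SE 0.17, adjusted p = 0.0380) and was the only marker called in these lists. The part of cell makeup in the Epo values was not tested.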

How the data were processed

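Per the labels, total RNA of renal cortex was amplified and labelled with Cy3. The deposited files hold spot intensity values, per the file headers from Agilent Feature Extraction 10.7.1.1 (10.7 in the submitters' processing notes), with statistics of background subtraction and detrending, and were not scaled between arrays. The authors' table of values holds intensity scaled between arrays. Its columns each fitted the scanner values of a different animal of their group (r = 1.00, against 0.991 to 0.993 for its own), so replicate numbers follow the scanner files and group membership is unaffected.

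Control spots were left out. Each processed signal was put on the log2 scale and the array's 75th percentile subtracted. A probe was kept if no array flagged it as an outlier (16 were flagged) and every array of at least 1 group had it well above background, which left 42036 of 61657 probes, 16 of them of the 9 genes. The files carried no gene names, so accessions without version were matched to RefSeq on GRCr8: 27460 probes matched 15284 symbols. An accession without a symbol was counted as a gene of its own, so a gene could be counted more than once in shares over all genes. The brightest kept probe stood for a gene. Groups were compared with limma 3.58.1 in R 4.3.3 (lmFit, eBayes, two-sided, no covariates, 4 residual and 2.10 prior degrees of freedom), with Benjamini-Hochberg adjustment over 31087 genes. The fit was tried on simulated data with known changes, independent noise and no slide effect, so that trial says nothing about the slides here.

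All 9 genes with a probe are named with their values. In each list, genes past the threshold and the 2 of smallest p on each side of 0 are named, with fixed oxygen-sensing and receptor genes. Slc34a1, Slc22a6, Miox, Ngfr, Lum and Aqp2 were named beside that rule after their values were seen. The 10 genes, the lists and the tests were chosen with earlier results of these data known. The labels give 3 animals per group.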

Additional observations from a re-analysis of the deposited data

How the results depend on the processing

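Across 19 alternatives none of the 9 genes was called, and 7 kept their direction, the exceptions being Egln3 and Slc2a1. Of 30 other named genes 24 kept their direction, and leaving out 1 array moved 18 of the 30, none of them called, by over 1.5 times. Many of the 30 were named for a small p in these same data, which favours a kept direction. Alternatives with a replicate block, with trend and robust variance or on single probes leave a gene's log2 change as it was. No direction could turn there, and slide as a block and slide 1 only give the same log2 changes. Epo could not be fitted with probes required well above background on all 6 arrays. It passed the main filter through the treated group alone, so its place among the 7 is a description. The median of the 9 genes was 0.20 with slide as a fixed block and on slide 1 only, and 0.028 with no scaling between arrays, an alternative chosen after seeing the data.

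Genes higher and lower over the whole array, 11 and 8 as reported, numbered 67 and 17 with normexp, 91 and 29 with trend and robust variance, 2 and 1 with slide as a block, and 1 and 1 on slide 1 only. No filter on dim probes gave 5 higher, single probes 19 higher, and probes above background on all 6 arrays 5 lower. Leaving out 1 array gave 2 to 16 higher and 1 to 5 lower. Called red cell transcripts, 4 as reported, numbered 9 with normexp, 7 with trend and robust variance, 1 with slide as a block, 0 on slide 1 only and 1 to 3 without 1 array.

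The replicate block gave 1 higher gene, 0 lower genes and 0 red cell transcripts. Replicate numbers did not pair the samples: deviations of same-numbered arrays correlated at 0.01, 0.09 and 0.0069, and the number serves as a name only. At an unadjusted p the main comparison had 1977 higher and 1598 lower genes.

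Signs turned as follows, with cause not tested. Within the slide, or with it as a block, Egln3 was 0.16, Hif1a 0.058, Epas1 -0.033 and Hif1an -0.052. With no scaling Epas1 was -0.0039 and Hif1an -0.020. With the mean of kept probes Hif1a was 0.042 and Vhl 0.032, and with normexp Arnt was 0.028. Leaving out 1 array gave ranges of -0.16 to 0.083 for Arnt, -0.058 to 0.023 for Egln2, -0.20 to 0.069 for Egln3, -0.017 to 0.13 for Hif1an, -0.0078 to 0.19 for Slc2a1 and -0.058 to 0.0031 for Vhl. Low signal over background limits Epo.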

Other observations

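Collecting duct markers, which the hypoxia lists do not hold, had a median log2 change of -0.28 over 9 tested genes, with 8 below 0 and 0 called. Their summed signal ran from 296 to 315 times the array's 75th percentile in controls and from 197 to 280 after o-anisidine, so the groups did not overlap. Slc4a1, which red cells also express, was the one gene above 0. Scnn1b, a subunit of the epithelial sodium channel, led the list by p, at 4.12, 4.17 and 4.03 in controls and 3.57, 3.50 and 3.61 after o-anisidine on the relative log2 scale (change -0.55, SE 0.074, adjusted p = 0.101 with limma). Aqp2, the water channel regulated by vasopressin, had a change of -0.58 (log2, SE 0.22, with an adjusted p of 0.412 from limma), and Avpr2, the vasopressin receptor, had -0.78 (SE 0.22, adjusted p = 0.300). These 3 of the 9 genes were lower on every treated array than on every control, beside 8.88% of all genes. Aqp2 was picked knowing its values, and its other kept probe gave -0.22.

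In the other marker lists no gene was called but Cd52, and the genes of smallest p on each side of 0 had these log2 changes. Proximal tubule genes gave 0.13 for Slc22a8, 0.14 for Ggt1, -0.20 for Lrp2 and -0.057 for Slc5a1. Thick ascending limb and distal tubule genes gave 0.14 for Umod, 0.0032 for Slc12a3, -0.16 for Kcnj1 and -0.23 for Cldn16. Inner medulla genes gave 0.35 for Cldn4, 0.15 for S100a6, -0.43 for Upk1b and -0.17 for Akr1b1. Podocyte genes gave -0.31 for Podxl and -0.20 for Wt1. Endothelial genes gave 0.10 for Cdh5 and Flt1, -0.22 for Emcn and -0.13 for Kdr. Leukocyte genes below 0 gave -0.27 for Csf1r and -0.34 for Adgre1.

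Probes that were dark on all arrays had higher signals on the treated arrays. Their median processed signal was 3.52, 3.51 and 3.35 units on controls 1, 2 and 3 and 3.86, 3.92 and 4.002 on o-anisidine 1, 2 and 3. Of these, o-anisidine 3 shared a slide with the controls, and the cause of the difference was not tested. The lowest signal well above background was 13.5 to 14.7 units on the controls and 15.3 to 16.8 on the treated arrays.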
